A study of Homo sapiens with 40 samples.

Results

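The genes described here are 10 receptors and ligands through which macrophages take up dying cells, lipoproteins and modified lipids: GAS6, PROS1, MERTK, AXL, TIMD4, ITGB5, SCARB1, CD36, MSR1 and MARCO. They were chosen by name, as the rows of the deposited table whose Ensembl ID maps to these symbols, and all 10 were found among its 60504 genes. The RNA came from human microglia-like cells, which model the brain's own macrophages and are differentiated from stem cells. There were 40 libraries in 7 groups, with 8 libraries for TREM2-KO, 7 each for WT, TREM2-R47H, SORL1-KO and SORL1-A528T, and 2 each for CD33 SNP and INPP5D SNP. H9, a long-used line of human embryonic stem cells, was the parent of every group. The edits were made with CRISPR/Cas9 at genes associated with Alzheimer's disease, and the edited lines carry their change on both alleles. TREM2-KO lacks the lipid receptor TREM2, TREM2-R47H carries a missense change in it, SORL1-KO carries a stop change in the sorting receptor SORL1, and SORL1-A528T carries a missense change in the same gene. CD33 SNP carries a change at the gene of a sialic acid receptor, and INPP5D SNP was converted to 2 A alleles at a site where the parent line has both G and A. All groups shared 1 protocol, in which blood progenitors collected on day 11 were grown for 28 days with IL-34, TGF-beta 1 and M-CSF, and with CD200 and CX3CL1 in the last 3 days. The number of clones behind each group, and whether libraries of a group are separate differentiations, are not given in the labels, so the p-values rest on differences between libraries that may be technical repeats.

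Dying cells expose the lipid phosphatidylserine on their surface, and phagocytes read it in several ways. GAS6 and protein S (the product of PROS1) are soluble bridging ligands that bind the lipid and activate the TAM receptor tyrosine kinases, which include MERTK and AXL. TIMD4 binds phosphatidylserine directly, and integrin beta 5 (ITGB5) pairs with integrin alpha v to bind it through the bridging protein MFGE8. SCARB1 and CD36 are class B scavenger receptors that bind lipoproteins and fatty acids as well as phosphatidylserine. MSR1 and MARCO are class A scavenger receptors that bind modified lipoproteins and other charged ligands, and MSR1 is commonly studied in microglia as a receptor for amyloid. All 10 are protein-coding genes, and their positions were looked up by Ensembl ID in GENCODE release 29 (GRCh38). The ligand genes are GAS6 (ENSG00000183087) on chromosome 13 from 113820549 to 113864067 and PROS1 (ENSG00000184500) on chromosome 3 from 93873033 to 93980003. The phosphatidylserine receptor genes are MERTK (ENSG00000153208) on chromosome 2 from 111898479 to 112029561, AXL (ENSG00000167601) on chromosome 19 from 41219203 to 41261766, TIMD4 (ENSG00000145850) on chromosome 5 from 156919282 to 156963255 and ITGB5 (ENSG00000082781) on chromosome 3 from 124761948 to 124901418. The scavenger receptor genes are SCARB1 (ENSG00000073060) on chromosome 12 from 124776856 to 124882668, CD36 (ENSG00000135218) on chromosome 7 from 80369575 to 80679277 and MARCO (ENSG00000019169) on chromosome 2 from 118942166 to 118994660.

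In GAS6, PROS1, MERTK and MARCO, the number that the labels give a library accounted for more than 50% of the variance of log2(TPM + 1), as described further on, so the sequence upstream of these 4 genes is shown. Sequences and starts are from RefSeq (GRCh38.p14), whose promoter table matched 8 of the 10 members. Each is written 5′ to 3′ on the gene's strand, covers up to 250 bases before the start, and leaves out bases that GENCODE release 29 places in an exon of the gene. Capitals mark the GC box, GGGCGG on either strand, the motif that the transcription factor SP1 binds.
GAS6 (chr13:113864077-113864326, minus strand): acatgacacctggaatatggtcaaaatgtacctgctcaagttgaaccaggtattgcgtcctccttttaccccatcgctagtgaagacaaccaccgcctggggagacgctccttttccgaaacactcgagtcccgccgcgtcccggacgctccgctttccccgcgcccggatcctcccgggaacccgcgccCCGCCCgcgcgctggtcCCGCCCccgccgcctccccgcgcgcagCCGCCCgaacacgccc
PROS1 (chr3:93974090-93974146, minus strand): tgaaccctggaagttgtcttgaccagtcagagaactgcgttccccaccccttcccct
MERTK (chr2:111898357-111898478, plus strand): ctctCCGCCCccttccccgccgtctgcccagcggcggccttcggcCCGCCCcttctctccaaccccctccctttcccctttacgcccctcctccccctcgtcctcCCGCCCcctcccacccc
MARCO (chr2:118941944-118942165, plus strand): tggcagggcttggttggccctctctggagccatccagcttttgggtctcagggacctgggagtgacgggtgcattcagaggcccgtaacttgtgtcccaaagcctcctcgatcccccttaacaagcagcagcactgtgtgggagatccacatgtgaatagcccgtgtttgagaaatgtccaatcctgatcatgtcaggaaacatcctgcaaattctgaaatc
The stretches of GAS6 and MERTK each held 3 GC boxes, and those of PROS1 and MARCO held none. In the full windows of 250 bases, exons included, GAS6 had 3 GC boxes, MERTK 4 and PROS1 2, and 42.6% of 35116 promoter windows of that length held at least 1. Also searched on both strands were the PU.1 core GAGGAA (held by 23.6% of windows), the AP-1 site TGANTCA (6.57%), the E-box CACGTG (6.34%) and TATAAA (10.7%). Of these only the PU.1 core had a match among the 4 genes, 1 in the window of PROS1. The RefSeq start of PROS1 lies within the longer GENCODE gene, which is why its stretch is only 57 bases long.

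Values are TPM, transcript abundance per length on a scale with a fixed library total, so levels of different genes can be set side by side, but read depth per library is not kept. Depth per the labels was 45.13 M reads on average and between 39.2 M and 64.6 M. A change is a difference of mean log2(TPM + 1), tested with limma in a single fit of all libraries and called where the Benjamini-Hochberg adjusted p over 14855 tested genes was below 0.05. The scale understates changes of genes near or below 1 TPM.

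Some libraries stood apart, and marker genes of other cells differed between groups. TREM2-KO replicate 8, SORL1-KO replicate 7 and SORL1-A528T replicate 7 lay farthest from their own groups, and each had the highest AXL, GAS6, CD36 and TIMD4 of its group. Summed levels of 12 microglia and macrophage markers were also highest in those 3 libraries (9534, 9848 and 9153 TPM, against 4778 to 9010 TPM in the other libraries of the 5 larger groups). Endothelial and stromal markers (14 genes) summed to between 190 and 3208 TPM in WT, against 194 to 465 TPM in TREM2-KO and 134 to 272 TPM in TREM2-R47H. Of the 9 that could be tested, 3 fell in TREM2-KO, 5 in TREM2-R47H and 3 in SORL1-KO, and none of the 14 was at 0 throughout a group. Much of the sum in the TREM2 lines was PECAM1, at 265 ± 98.7 TPM in TREM2-KO and 144 ± 29.4 TPM in TREM2-R47H, against 236 ± 52.8 TPM in WT (SD). The collagen gene COL1A1 was at 17.9 ± 27.7 and 16.3 ± 18.2 TPM in these lines, against 186 ± 239 TPM in WT (SD). All 12 microglia and macrophage markers averaged at least 1 TPM in every group, although the microglial marker TMEM119 was low, at 4.19 ± 2.49 TPM in WT (SD, n = 7). TREM2 was at 457 ± 120 TPM in WT and 35.3 ± 8.39 TPM in TREM2-KO (SD, n = 7 and 8), and SORL1 at 33.3 ± 9.74 TPM in WT and 16.1 ± 3.00 TPM in SORL1-KO (SD, n = 7 each). Libraries numbered 5 and 6 were closer to each other than any other pair of their group in all of the 5 larger groups but TREM2-R47H, for example with a root mean square log2 difference of 0.41 in WT, where other pairs had at least 0.43. They were counted as separate libraries. In bulk RNA, fewer cells of a type and less RNA per cell cannot be told apart.

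In WT the most abundant members were the integrin subunit ITGB5 at 231 ± 39.5 TPM, the receptor AXL at 127 ± 19.0 TPM and CD36 at 101 ± 12.9 TPM (SD, n = 7 each). MERTK followed at 81.7 ± 22.9 TPM and SCARB1 at 58.6 ± 5.97 TPM. The range of CD36 (84.0 to 122 TPM) overlapped those of AXL (93.6 to 150 TPM) and MERTK (55.8 to 121 TPM). MSR1 at 21.7 ± 7.63 TPM and the ligand GAS6 at 17.2 ± 8.30 TPM overlapped, and PROS1 was lower at 6.48 ± 1.94 TPM. MARCO and TIMD4 were at the edge of detection, with WT medians of 0.23 and 0.37 TPM. All 10 members passed the filter of at least 1 TPM in at least 7 libraries. MARCO reached 1 TPM in 9 libraries and TIMD4 in 15, none of the latter from WT, and the other 8 members did so in all 40.

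**Figure D1:**
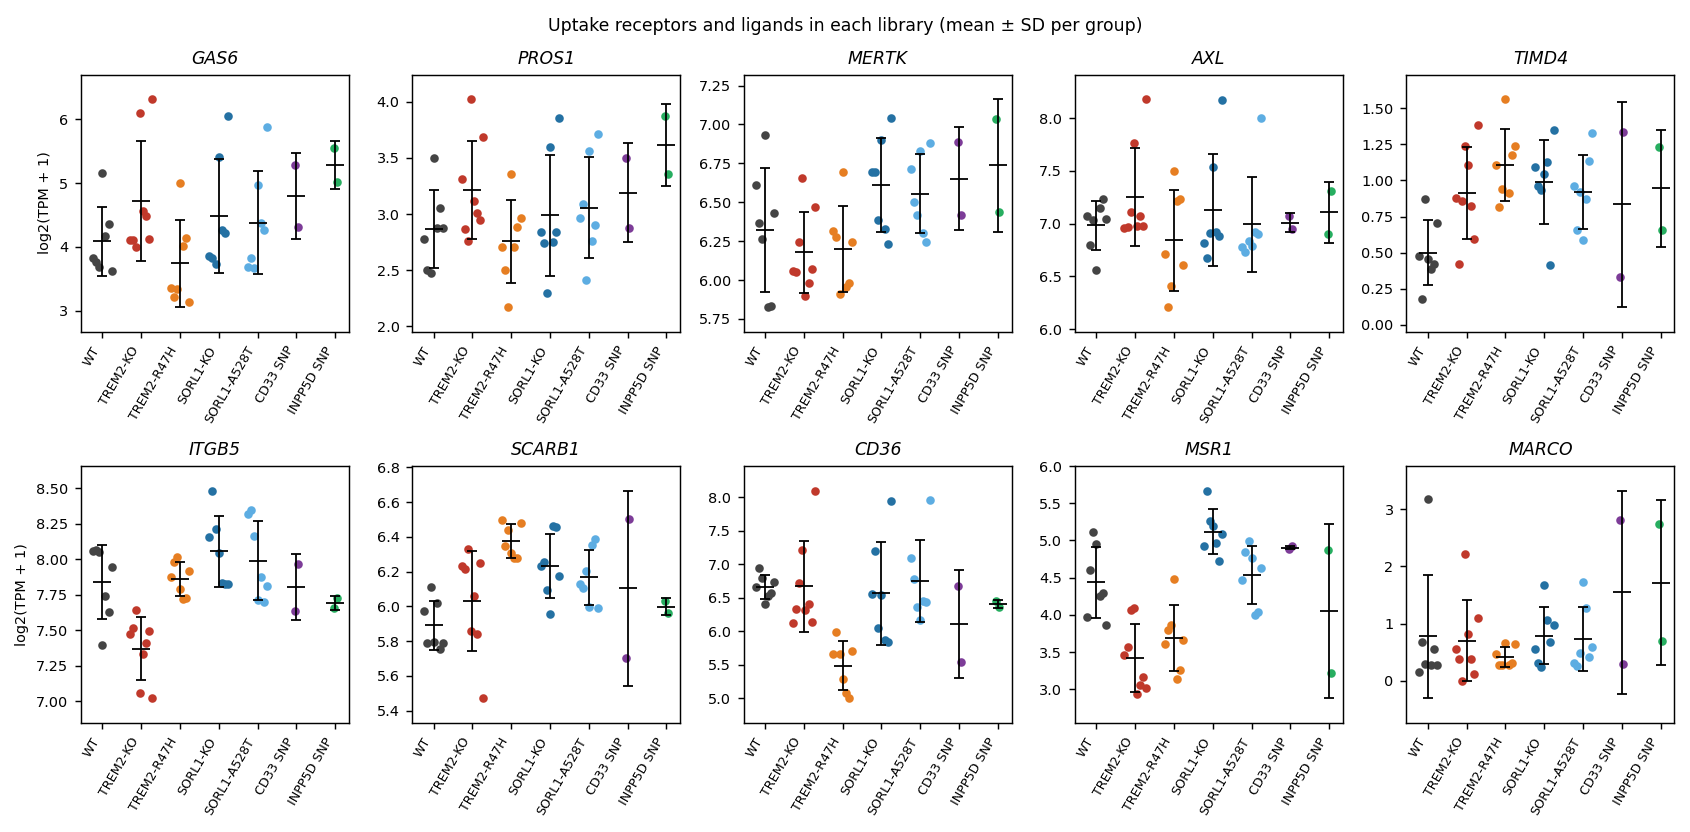
Level of each gene in every library as log2(TPM + 1), by group; each point is a library, the long bar is the mean and the whiskers are the SD. CD36 is lowest in TREM2-R47H, MSR1 is lowest in the TREM2-KO and TREM2-R47H groups, and ITGB5 is lowest in TREM2-KO.

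The bridging ligand GAS6 varied widely within groups and did not pass the test in any of the 8 comparisons, nor did PROS1. GAS6 ranged from 11.4 to 34.8 TPM in WT (median 13.2), from 14.9 to 78.5 TPM in TREM2-KO (median 18.9) and from 7.77 to 31.0 TPM in TREM2-R47H (median 9.24). It ranged from 12.3 to 65.1 TPM in SORL1-KO (median 17.6) and from 11.7 to 58.0 TPM in SORL1-A528T (median 18.2). The ranges overlapped throughout, and each of these groups held 1 or 2 libraries far above the rest. Without its replicate 4, WT (11.4 to 19.6 TPM) still overlapped TREM2-R47H without its replicate 4 (7.77 to 16.6 TPM). Against WT the difference of GAS6 was 0.64 ± 0.39 in TREM2-KO (SE; limma adjusted p = 0.619) and -0.34 ± 0.40 in TREM2-R47H (limma adjusted p = 0.687). When only the 2 groups were fitted and the library number was a block, the GAS6 difference was 0.41 in TREM2-KO without its replicate 8, which has no partner in WT (limma adjusted p = 0.0438), and -0.34 in TREM2-R47H (limma adjusted p = 0.00898). With the stromal marker score in the fit, the difference in TREM2-R47H changed direction, to 0.092 (limma adjusted p = 0.95). Neither was called in the blocked fit of all libraries (limma adjusted p = 0.559 and 0.406). Between TREM2-KO and TREM2-R47H, GAS6 differed by 0.98 ± 0.39 (SE; limma adjusted p = 0.0679), with 8 of 8 TREM2-KO libraries above the TREM2-R47H mean. That difference was called without TREM2-KO replicate 3 (1.08, limma adjusted p = 0.0486) and without TREM2-R47H replicate 4 (1.19, limma adjusted p = 0.0252).

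PROS1 was lower than GAS6 in its level and varied less. It ranged from 4.55 to 10.3 TPM in WT (median 6.33), from 5.79 to 15.2 TPM in TREM2-KO (median 7.35) and from 3.52 to 9.25 TPM in TREM2-R47H (median 5.52). Its differences from WT were 0.35 ± 0.22 in TREM2-KO (SE; limma adjusted p = 0.631) and -0.11 ± 0.23 in TREM2-R47H (SE; limma adjusted p = 0.842), and the TREM2 lines differed by 0.46 ± 0.22 (SE; limma adjusted p = 0.134). The ratio of GAS6 to PROS1 was 2.59 ± 0.48 in WT, 3.31 ± 1.53 in TREM2-KO and 2.28 ± 0.77 in TREM2-R47H (SD, n = 7, 8 and 7), so the ratios lay within their spread.

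The TAM receptors MERTK and AXL did not pass the test in any of the 8 comparisons. MERTK, the receptor that serves both ligands, ranged from 55.8 to 121 TPM in WT (median 81.4), from 58.5 to 99.9 TPM in TREM2-KO (median 65.9) and from 59.3 to 103 TPM in TREM2-R47H (median 74.7). In the SORL1 lines it ranged from 74.1 to 131 TPM (SORL1-KO, median 102) and from 74.7 to 117 TPM (SORL1-A528T, median 89.5). The 95% interval of its change was -0.46 to 0.17 in TREM2-KO and -0.45 to 0.20 in TREM2-R47H. AXL, which is driven by GAS6, ranged from 93.6 to 150 TPM in WT (median 131) and from 73.2 to 180 TPM in TREM2-R47H (median 104). In TREM2-KO it ranged from 124 to 288 TPM (median 130), and the top value was replicate 8, which stands apart. The interval of its change was -0.17 to 0.71 in TREM2-KO and -0.60 to 0.31 in TREM2-R47H. AXL exceeded MERTK on average in all 7 groups, by a ratio of 1.71 ± 0.68 in WT, 2.16 ± 0.48 in TREM2-KO and 1.41 ± 0.41 in SORL1-A528T (SD, n = 7, 8 and 7).

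ITGB5 was the most abundant member, and it fell in TREM2-KO. Its level ranged from 129 to 199 TPM in TREM2-KO (median 173), from 167 to 267 TPM in WT (median 246) and from 210 to 258 TPM in TREM2-R47H (median 233). All 8 TREM2-KO libraries were below the WT mean, although the ranges overlapped, and all 8 were below every TREM2-R47H library. The change from WT, -0.47 ± 0.12 (SE; limma adjusted p = 0.0252), was close in size to that from TREM2-R47H, -0.49 ± 0.12 (SE; limma adjusted p = 0.00199). TREM2-R47H and WT differed in ITGB5 by 0.02 ± 0.12 (SE; limma adjusted p = 0.951). The call against WT was lost without WT replicate 1 (limma adjusted p = 0.0544), WT replicate 2 (0.0755), TREM2-KO replicate 4 (0.066) or TREM2-KO replicate 8 (0.0619), as well as with no filter on low values (0.0554) and in a fit of the 2 groups alone (0.0713). Without the 3 libraries that stand apart it was -0.42 (limma adjusted p = 0.0487).

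TIMD4, the direct phosphatidylserine receptor, was near 1 TPM or below in all groups. It ranged from 0.13 to 0.83 TPM in WT (median 0.37) and from 0.76 to 1.95 TPM in TREM2-R47H (median 1.15), and all 7 TREM2-R47H libraries were above the WT mean. The change on the log2(TPM + 1) scale was 0.61 ± 0.16 (SE; limma adjusted p = 0.0111). Because no WT library reached 1 TPM, TIMD4 passed the filter only through the edited groups. The size of this change depended on the constant added before the logarithm, from 0.19 with 5 TPM to 1.34 with 0.1 TPM, and it was not called once the stromal marker score entered the fit (0.54, limma adjusted p = 0.0739) or without the libraries numbered 4 (0.52, limma adjusted p = 0.0511). In TREM2-KO (0.924 ± 0.426 TPM, n = 8), SORL1-KO (1.02 ± 0.368 TPM, n = 7) and SORL1-A528T (0.921 ± 0.347 TPM, n = 7) the level of TIMD4 (mean ± SD) was also above the 0.429 ± 0.230 TPM of WT, but was not called (limma adjusted p = 0.236, 0.137 and 0.508).

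The class B scavenger receptors moved in opposite directions in TREM2-R47H: CD36 fell and SCARB1 rose. CD36, a receptor for fatty acids and oxidised lipoproteins, ranged from 31.1 to 62.8 TPM in TREM2-R47H (median 49.6), against 84.0 to 122 TPM in WT (median 100.3). The groups did not overlap, and mean CD36 was 0.446 times that of WT. The difference of -1.18 ± 0.29 (SE; limma adjusted p = 0.00627) was called under every alternative listed with the processing. In TREM2-KO, CD36 ranged from 68.8 to 274 TPM (median 81.6). Its difference from WT was 0.01 ± 0.28 (SE; limma adjusted p = 0.998), with a 95% interval of -0.57 to 0.58. Without TREM2-KO replicate 8, at 274 TPM, it was -0.20 ± 0.26 (SE; limma adjusted p = 0.97). Every TREM2-KO library was above every TREM2-R47H library, and the change between these lines was 1.18 ± 0.28 (SE; limma adjusted p = 0.00235). Without the 3 libraries that stand apart, among them the TREM2-KO library with 274 TPM, it was 0.98 (limma adjusted p = 0.000381).

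SCARB1, the high-density lipoprotein receptor, ranged from 76.5 to 89.5 TPM in TREM2-R47H (median 80.4), against 53.1 to 68.2 TPM in WT (median 54.6). These groups did not overlap either, and mean SCARB1 was 1.40 times that of WT. The change was 0.48 ± 0.11 (SE; limma adjusted p = 0.00268). Once the stromal marker score entered the fit it was 0.35 (limma adjusted p = 0.067), while CD36 remained called in that fit (-1.20, limma adjusted p = 0.0242). In TREM2-KO, SCARB1 ranged from 43.4 to 79.3 TPM (median 69.4) and overlapped both other groups. TREM2-KO was below TREM2-R47H by a change of -0.34 ± 0.11 (SE; limma adjusted p = 0.0177), and this call was lost without TREM2-KO replicate 8, the lowest library (-0.26, limma adjusted p = 0.0545). Mean SCARB1 was lowest in WT of all 7 groups. In the other edited groups it lay between 63.0 TPM (INPP5D SNP) and 74.8 TPM (SORL1-KO), without a call against WT in the reported fit.

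MSR1 (ENSG00000038945, chromosome 8, 16107878 to 16567490), a class A scavenger receptor, fell in both TREM2 lines. It ranged from 6.66 to 16.1 TPM in TREM2-KO (median 8.995) and from 7.80 to 21.4 TPM in TREM2-R47H (median 11.7), against 13.6 to 33.5 TPM in WT (median 18.5). None of the 15 libraries of these lines exceeded the WT mean, although the ranges overlapped. The change was -1.02 ± 0.23 in TREM2-KO (SE; limma adjusted p = 0.011) and -0.75 ± 0.23 in TREM2-R47H (SE; limma adjusted p = 0.0321). Both comparisons used the same WT libraries, and the 2 lines differed from each other by -0.27 ± 0.23 (SE; limma adjusted p = 0.431). The call in TREM2-KO held under every alternative. In TREM2-R47H it was lost without replicate 1, 5, 6 or 7 of that line (limma adjusted p = 0.0537, 0.0731, 0.0672 and 0.0515) and without WT replicate 2, 3 or 4 (0.0543, 0.0812 and 0.0784).

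In SORL1-KO, MSR1 ranged from 25.5 to 49.9 TPM (median 32.9), and all 7 libraries were above the WT mean. Its difference from WT was 0.68 ± 0.23 (SE; limma adjusted p = 0.162), which did not pass the test. SORL1-A528T ranged from 15.0 to 31.0 TPM (median 23.7), and its difference from WT was 0.10 ± 0.23 (SE; limma adjusted p = 0.999). Between the SORL1 lines the difference was 0.58 ± 0.23 (SE; limma adjusted p = 1), with 7 of 7 SORL1-KO libraries above the SORL1-A528T mean. Blocked by library number it passed the test when only these 2 groups were fitted (0.58, limma adjusted p = 0.0149), and it did not when all libraries were (limma adjusted p = 0.486).

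MARCO, the other class A receptor, did not pass the test in any comparison. Its median was 0.23 TPM in WT, 0.395 TPM in TREM2-KO, 0.25 TPM in TREM2-R47H, 0.61 TPM in SORL1-KO and 0.40 TPM in SORL1-A528T. The highest values were 8.02 TPM in WT replicate 4, 5.98 TPM in CD33 SNP replicate 1, 5.66 TPM in INPP5D SNP replicate 1 and 3.65 TPM in TREM2-KO replicate 4. Every other library was below those, and 31 of the 40 were below 1 TPM.

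**Figure D2:**
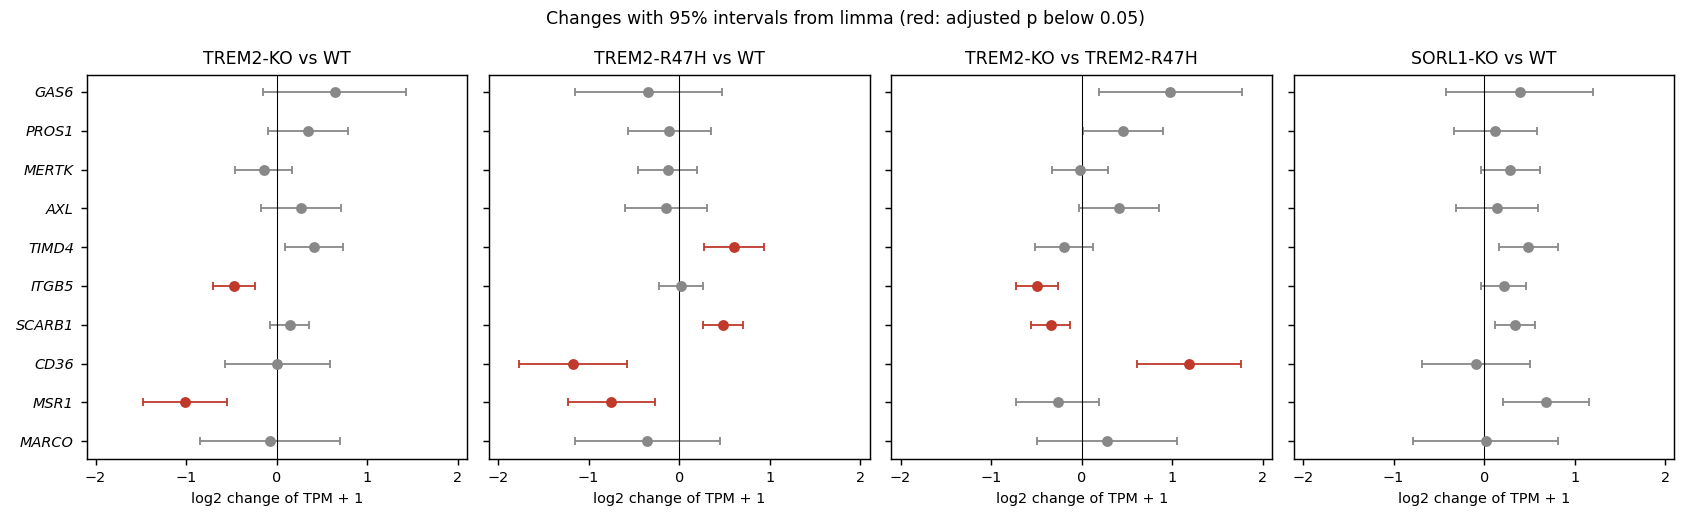
Difference of mean log2(TPM + 1) for each gene in 4 comparisons; points are limma estimates, bars are 95% intervals, and red marks an adjusted p below 0.05. CD36 is called lower in TREM2-R47H against WT and higher in TREM2-KO against TREM2-R47H, so TREM2-R47H is the low group in both. No gene is called in SORL1-KO against WT.

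By comparison, 2 of the 10 members were called in TREM2-KO against WT, both lower (MSR1 and ITGB5), where 1.61% of all tested genes were called and 1.33% were called lower. In TREM2-R47H against WT, 4 were called (TIMD4 and SCARB1 higher, CD36 and MSR1 lower), where 11.4% of tested genes were called, 2.63% higher and 8.77% lower. Leaving aside TIMD4, which passed the filter only through the edited groups, this was 3 of 9. Between TREM2-KO and TREM2-R47H, 3 members were called (CD36 higher in TREM2-KO, SCARB1 and ITGB5 lower), where 21.3% of tested genes were called, 14.7% higher in TREM2-KO and 6.58% lower. The median change of the members was 0.07, -0.13 and 0.13 in these comparisons, against -0.00, -0.06 and 0.06 over all tested genes. With 10 members, each of these counts rests on few genes.

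No member was called in the other lines. In SORL1-KO against WT the limma count was 0 of 10, with 1.09% of tested genes called. In SORL1-A528T it was 0 of 10, with 0.0471% called. SCARB1 was above the WT mean in 7 of 7 libraries of each SORL1 line, at 74.8 ± 9.61 and 71.3 ± 8.01 TPM (SD, n = 7 each; differences of 0.34 and 0.28, limma adjusted p = 0.12 and 0.557). Between the SORL1 lines 0 of 10 passed limma's test, with 0.0942% of tested genes called. The median change of the members was 0.25 in SORL1-KO, 0.17 in SORL1-A528T and 0.07 between them, against -0.03, -0.02 and -0.01 over all tested genes.

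The CD33 SNP and INPP5D SNP groups had 2 libraries each, and their values were wide apart for several members. In CD33 SNP, CD36 was at 101.5 and 45.5 TPM and SCARB1 at 51.2 and 89.6 TPM, while MSR1 was at 28.6 and 29.3 TPM. In INPP5D SNP, MSR1 was at 8.35 and 28.4 TPM, while CD36 was at 81.7 and 86.6 TPM. GAS6 was at 45.7 and 31.5 TPM in INPP5D SNP and at 37.8 and 18.9 TPM in CD33 SNP, above the WT mean in all 4 libraries. Monocyte markers summed to 2407 and 413 TPM in INPP5D SNP and to 1794 and 114 TPM in CD33 SNP, and stromal markers to 836 and 2200 TPM and to 386 and 187 TPM. Within the stromal sum, PECAM1 averaged 280 TPM in INPP5D SNP and 239 TPM in CD33 SNP, and COL1A1 averaged 309 and 12.9 TPM. The part of monocytes and stromal cells in the GAS6 levels was not tested. PROS1 was at 9.22 and 13.6 TPM in INPP5D SNP. By limma 0 of 10 members were called in CD33 SNP, where 0% of tested genes were called. In INPP5D SNP 0 of 10 were called, where 0.0337% of tested genes were called. The difference of PROS1 from WT there was 0.75 ± 0.34 (SE; limma adjusted p = 0.662).

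Libraries carrying the same number in the labels resembled each other across genotypes in several members. Over the 35 libraries numbered 1 to 7 in the 5 larger groups, the number accounted for 69.0% of the variance of PROS1, 65.1% of MARCO, 54.6% of MERTK and 53.2% of GAS6, against a median of 29.9% over all tested genes. Genotype accounted for 10.6%, 4.42%, 31.3% and 14.8% of the same genes, against a median of 15.2%. The order was the other way round for MSR1 (genotype 70.3%, number 22.0%), SCARB1 (53.9% and 14.2%), ITGB5 (53.0% and 33.3%), CD36 (49.0% and 18.8%) and TIMD4 (41.9% and 16.8%). For AXL neither accounted for much (genotype 7.08%, number 29.8%). Number 7 joins libraries that differ: GAS6 in it was at 11.4 TPM in WT, 16.4 TPM in TREM2-KO and 7.77 TPM in TREM2-R47H, but at 65.1 and 58.0 TPM in the SORL1-KO and SORL1-A528T libraries that stand apart. Over the 30 libraries numbered 1 to 6 the number accounted for 82.6% of the variance of GAS6, 78.1% of PROS1, 66.8% of MARCO and 64.2% of MERTK, against a median of 33.2% over all tested genes. What the number stands for is not given in the labels.

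**Figure D3:**
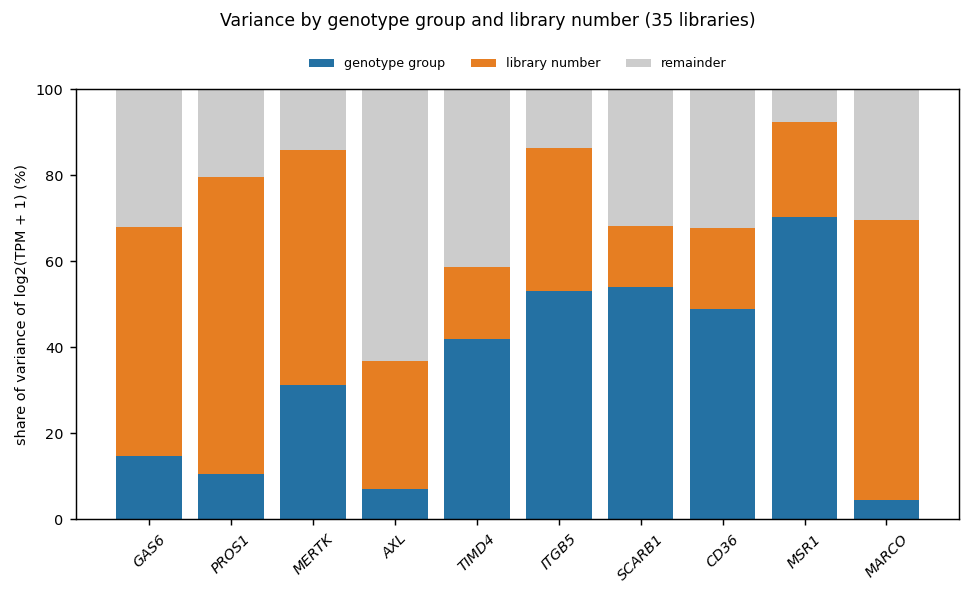
Share of the variance of log2(TPM + 1) by genotype group (bottom), by library number (middle) and left over (top), for each gene over 35 libraries. Genotype holds 70.3% for MSR1 and 4.42% for MARCO.

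The libraries numbered 4 were high in the ligands. GAS6 in them was 34.8 TPM in WT, 67.9 in TREM2-KO, 31.0 in TREM2-R47H, 41.3 in SORL1-KO and 30.5 in SORL1-A528T. These values are 2.49 to 4.29 times the mean of the libraries numbered 1 to 3 of the same group, and rank first or second in each group. PROS1 was 1.74 to 2.18 times that mean, MERTK 1.22 to 1.46 times and MARCO 2.13 to 25.3 times, with MARCO highest in number 4 in all 5 groups. Marker sums of other myeloid cells were also high in number 4. The summed monocyte markers were highest in number 4 in 4 of the 5 groups, for example 2808 TPM in WT against 109 to 757 TPM in its other libraries. Markers of border-associated and tissue-resident macrophages were highest in number 4 in 4 of the 5 groups as well, at 342 TPM in WT against 60.1 to 93.6 TPM. In TREM2-R47H the monocyte sum of number 4 was 144 TPM, against 25.7 to 51.9 TPM in its other libraries. GAS6 in that library was 3.49 times the mean of numbers 1 to 3. TREM2-KO replicate 8, SORL1-KO replicate 7 and SORL1-A528T replicate 7 had more GAS6 than number 4 of their groups (78.5, 65.1 and 58.0 TPM). Their monocyte sums were lower than in number 4, at 494, 221 and 220 TPM against 1620, 491 and 1214 TPM. Their resident-macrophage sums were 335, 238 and 218 TPM, against 460, 239 and 210.5 TPM in number 4. The part of monocytes and resident macrophages in the levels of GAS6, PROS1, MERTK and MARCO was not tested.

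**Figure D4:**
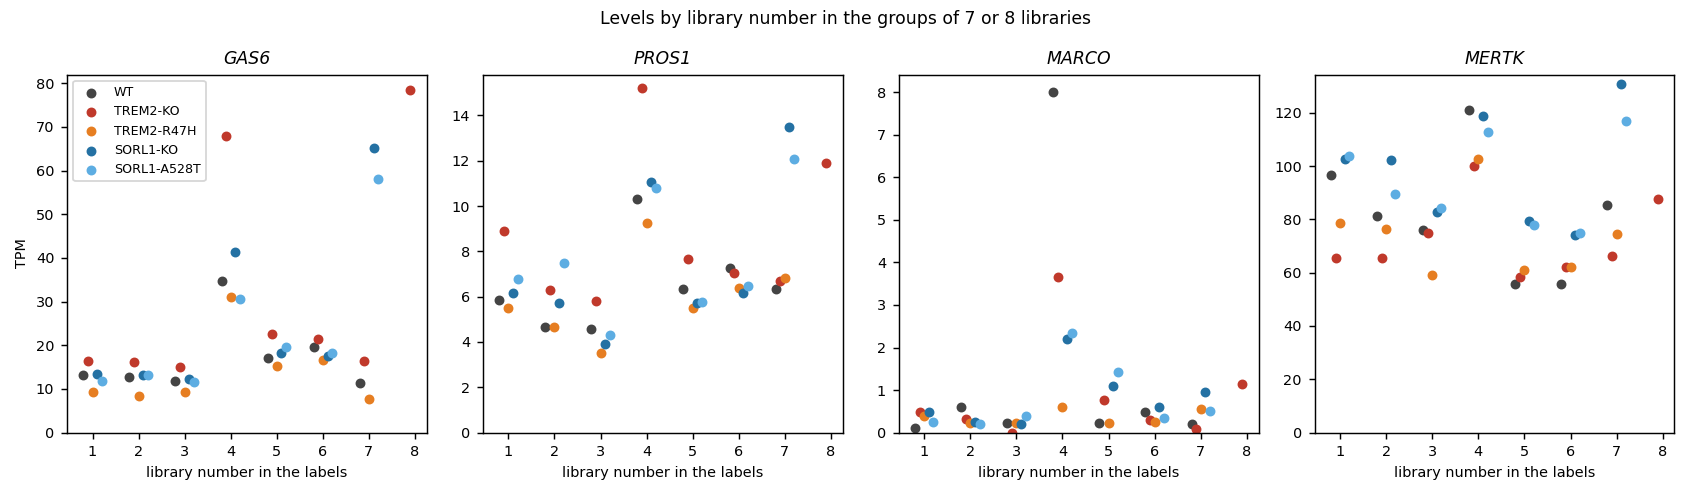
Level in TPM of GAS6, PROS1, MARCO and MERTK against the library number in the labels, for the 5 groups of 7 or 8 libraries (colours). GAS6 in number 4 lies between 30.5 and 67.9 TPM, above numbers 1 to 3 of every group.

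Monocyte and resident-macrophage markers also moved with genotype beside the changes above. In TREM2-R47H 3 of 6 tested monocyte markers fell against WT, and their sum ranged from 25.7 to 144 TPM, against 109 to 2808 TPM in WT and 132 to 1753 TPM in TREM2-KO. Of 5 tested markers of border-associated and tissue-resident macrophages, 1 fell in TREM2-R47H and 1 rose in TREM2-KO against WT, and all 5 exceeded their TREM2-R47H levels in TREM2-KO. Their part in the CD36, SCARB1 and MSR1 results was not tested. Without the libraries numbered 4, CD36 in TREM2-R47H was called against WT (-1.19, limma adjusted p = 0.0168), as were SCARB1 (0.48, limma adjusted p = 0.00822) and MSR1 (-0.79, limma adjusted p = 0.0301). Monocyte marker sums in the libraries left were 25.7 to 51.9 TPM in TREM2-R47H and 109 to 757 TPM in WT. The groups remained apart in these markers, so that omission does not test their part. Megakaryocyte and erythroid markers summed to at most 6.25 TPM and pluripotent markers to at most 0.46 TPM in any library, and the haemoglobin genes HBG1 and HBE1 were at 0.

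The genes whose log2(TPM + 1) followed each member most closely over the 40 libraries are given with Pearson's r as a description, since the libraries share genotypes and library numbers. GAS6 was most like CARD6 (r = 0.97), SLC43A2 (0.97) and KCNE3 (0.96), and PROS1 most like PDCD1LG2 (0.91), OLFML2B (0.90) and SNX6 (0.90). AXL was most like HLA-DMB (0.96), ERMAP (0.96) and BMF (0.95), and MERTK most like ADAM9 (0.94), MPP1 (0.93) and C5AR1 (0.91). CD36 was closest to EXOC3 (0.93), AHRR (0.92) and CPT1A (0.89), and SCARB1 to CHCHD6 (0.85), LIPG (0.81) and PHKA1 (0.80). MSR1 was closest to DDIT4L (0.84), PDPN (0.82) and CYP27A1 (0.82), and MARCO to FCN1 (0.86), CHI3L2 (0.85) and ATOH8 (0.84). ITGB5 followed ADCY3 (0.89), HAPLN4 (0.88) and PDGFA (0.88). TIMD4 had the weakest likeness, with SBNO1-AS1 (0.65), HSD17B14 (0.63) and EIF4B (0.62).

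Other genes of phosphatidylserine recognition and engulfment were taken as a list of 26, of which 22 could be tested. In TREM2-KO against WT none was called, where 1.61% of all tested genes were. In TREM2-R47H against WT 2 were higher and 5 lower, with a median change of -0.21 against -0.06 over all tested genes, of which 2.63% were called higher and 8.77% lower. CD47, the "don't eat me" ligand, fell by 0.35 on the log2 scale (48.8 ± 3.47 against 62.3 ± 4.58 TPM; limma adjusted p = 0.000659), and its receptor SIRPA by 0.31 (177 ± 18.8 against 219 ± 13.5 TPM; limma adjusted p = 0.00474). CD300A, an inhibitory receptor for phosphatidylserine, fell by 0.50 (133 ± 10.0 against 189 ± 15.8 TPM; limma adjusted p = 0.00129). The clearance receptor STAB1 fell by 0.98 (184 ± 57.2 against 365 ± 119 TPM; limma adjusted p = 0.00643) and the bridging glycoprotein THBS1 by 1.14 (0.473 ± 0.507 against 3.15 ± 3.79 TPM; limma adjusted p = 0.0152). The integrin subunit ITGB3 rose by 0.68 (5.84 ± 1.47 against 3.28 ± 1.06 TPM; limma adjusted p = 0.00698). The remaining called gene, named after its values were seen, was MFGE8, the bridging protein that ITGB5 and its partner bind: it was at 43.7 ± 7.28 TPM in TREM2-R47H and 19.2 ± 6.41 TPM in WT (1.19, limma adjusted p = 0.0218). All these levels are mean ± SD of 7 libraries a group.

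Between TREM2-KO and TREM2-R47H, 9 of the 22 were higher in TREM2-KO and 3 lower, where 14.7% and 6.58% of all tested genes were. In SORL1-KO against WT 1 was called, and it was lower, where 1.09% of all tested genes were called. In SORL1-A528T, CD33 SNP, INPP5D SNP and between the SORL1 lines none was called. ITGAV, the alpha v partner of ITGB5, was at 52.9 ± 9.97 TPM in WT and 62.1 ± 20.8 TPM in TREM2-KO (SD, n = 7 and 8; limma adjusted p = 0.739). The third TAM receptor, TYRO3, was near 1 TPM, at 0.921 ± 0.255 TPM in WT (SD, n = 7).

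Other lipoprotein and scavenger receptors formed a list of 21, of which 16 could be tested. In TREM2-KO against WT 1 was called, where 1.61% of all tested genes were. It was the lipoprotein lipase gene LPL, which fell by 1.45 on the log2 scale (25.9 ± 9.85 against 70.9 ± 25.9 TPM, SD, n = 8 and 7; limma adjusted p = 0.00689). In TREM2-R47H against WT none was higher and 3 were lower, where 2.63% and 8.77% of all tested genes were. The 3 were STAB1, which is on both lists, the scavenger receptor SCARF1 (26.3 ± 4.68 against 35.0 ± 3.37 TPM; limma adjusted p = 0.0219) and the haemoglobin scavenger receptor CD163 (35.1 ± 17.2 against 87.2 ± 75.5 TPM; limma adjusted p = 0.0417; SD, n = 7 each). CD163 is also the 1 marker of border-associated and tissue-resident macrophages that fell in TREM2-R47H, as given above. Between TREM2-KO and TREM2-R47H 6 of the 16 were higher in TREM2-KO and 3 lower, where 14.7% and 6.58% of all tested genes were, and none was called in the remaining comparisons. The low-density lipoprotein receptor-related protein LRP1, on both lists, was at 76.5 ± 28.6 TPM in WT and 52.1 ± 14.4 TPM in TREM2-R47H (SD, n = 7 each), a difference that missed the threshold (-0.52, limma adjusted p = 0.176).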

How the data were processed

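RNA of 40 libraries of microglia-like cells was analysed, grouped by the genotype in the labels. The authors deposited TPM values, 1 column per library. Per the submitters' processing notes the tools were cutadapt 1.18, STAR 2.7, RSEM 1.3.1 and DESeq2. None of the sources used here gives the version of the last, the genome build or the annotation. Libraries were directional and read as pairs of 150 bp, per the labels' protocols. Read counts are not used here, so depth per library is unknown and precision rests on how far libraries of a group differ.

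Differences are of log2(TPM + 1) and were tested with limma 3.58.1 (R 4.3.3; variance trend and robust estimation on) in 1 fit of 40 libraries and 7 group means, without rescaling. A gene was tested if 7 or more libraries had at least 1 TPM (14855 of 60504 genes). Two-sided p-values were adjusted with the Benjamini-Hochberg method, separately in each of 8 comparisons, over all tested genes. The procedure was tested on simulated data, drawn independently for each library and without an effect of library number. Likeness between libraries was therefore not covered. Variance shares are sums of squares of a fit of group and library number. For the stromal score, log2(TPM + 1) was averaged over 14 markers.

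The members, the marker lists and the pathway lists were chosen with earlier results of these data known. Named were all members in all groups, up to 6 genes of each pathway list with the lowest adjusted p against WT, and the 3 genes most correlated with each member. TMEM119, ITGAV, TYRO3, LRP1 and MFGE8 were named after their values were seen. The alternatives tried were a pseudocount of 0.1 or 5 TPM, dropping the filter or raising it to 5 TPM, median-ratio scaling, fitting only the groups compared, a block for the library number, a covariate for the stromal score, and omission of each library in turn. Chosen after seeing the data were the omission of 3 libraries far from their groups, the omission of libraries numbered 4, and the averaging of libraries 5 and 6 of a group.

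Library numbers were taken to pair a comparison's groups where the deviations of every same-numbered pair correlated above 0.1. This held for TREM2-KO and WT (0.11 to 0.31), TREM2-R47H and WT (0.14 to 0.28) and the SORL1 lines (0.31 to 0.78), and not for the other comparisons.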

Additional observations from a re-analysis of the deposited data

Results flagged for a closer look

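Within each group of 7 or 8 libraries, the highest and lowest value of each gene was set against the gap to its neighbour, and 9 of 50 groups had a library far from the others by Dixon's criterion. For independent groups of normally distributed values, chance gives about 1 in 20. Here the same libraries enter for every gene and the values are TPM, so the count cannot be judged against that rate. How often such libraries occur over all genes was not tested. Libraries numbered 4 account for 5 of the 9. GAS6 was at 34.75 TPM in WT replicate 4 (the others at 11.4 to 19.6 TPM) and at 31.04 TPM in TREM2-R47H replicate 4 (7.77 to 16.6 TPM). MSR1 was at 21.36 TPM in TREM2-R47H replicate 4 (7.80 to 13.5 TPM), which leaves every other library of that group below the lowest WT library. MARCO was at 8.02 TPM in WT replicate 4 (0.11 to 0.61 TPM) and at 3.65 TPM in TREM2-KO replicate 4 (0 to 1.15 TPM).

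The other 4 are in libraries that stand apart from their group as a whole. SORL1-A528T replicate 7 had AXL at 254.96 TPM (the others at 106 to 120 TPM), GAS6 at 57.99 TPM (11.7 to 30.5 TPM) and CD36 at 248.44 TPM (70.7 to 136 TPM). TREM2-KO replicate 8 had CD36 at 273.6 TPM (68.8 to 148 TPM). The same libraries had the highest sum of microglia and macrophage markers of their groups, and the part of that in these values was not tested.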

How the results depend on the processing

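Across 12 alternatives and the omission of single libraries, none of the 9 called member differences changed sign, and 60 of 80 member comparisons were not called under any setting. In TREM2-KO against WT 2 members were called, 1 with no filter on low values, 1 in a fit of the 2 groups alone, and 1 to 2 when single libraries were left out. In TREM2-R47H against WT the 4 calls became 2 with the stromal score as a covariate, and GAS6 there went from -0.34 to 0.092 without being called. With the replicate block in the fit of all libraries, 3 members were called in SORL1-KO against WT (MERTK, SCARB1 and MSR1), 3 in INPP5D SNP against WT (GAS6, PROS1 and ITGB5) and 5 between TREM2-KO and TREM2-R47H, where GAS6 and PROS1 were added. Over all tested genes that fit called 735, 1567 and 3725 in these comparisons, against 162, 5 and 3157 as reported. The labels' numbers did not pair the groups in any of these 3 comparisons, with lowest correlations of -0.105, 0.0212 and 0.0916. In INPP5D SNP, replicate 1 had MARCO at 5.66 TPM and monocyte markers at 2407 TPM, against 0.11 and 296 TPM in WT replicate 1 and 8.02 and 2808 TPM in WT replicate 4. Each of the 2 INPP5D SNP libraries correlated better with its own number in WT than with the other number, at 0.102 and 0.0212. Whether they share more than a number with those WT libraries was not tested. With the block in fits of 2 groups, 5 members were called between the TREM2 lines and 1 (MSR1) between the SORL1 lines, where 3943 and 74 of all tested genes were. Apart from these member calls and GAS6 in either TREM2 line against WT, the block changed no call of a member. In the comparisons of the larger groups, 2 to 4 of 7 libraries correlated best with their own number. The cause of these shifts was not tested. Over all genes the median-ratio scaling moved the split of calls in TREM2-R47H against WT from 390 higher and 1303 lower to 603 and 829, and between the TREM2 lines from 2180 and 977 to 1462 and 1399. The number of genes called under the alternatives ranged from 148 to 586 in TREM2-KO against WT (239 as reported), from 942 to 2906 in TREM2-R47H (1693), from 18 to 735 in SORL1-KO (162), from 3 to 127 in SORL1-A528T (7), from 0 to 209 in CD33 SNP (0), from 0 to 1567 in INPP5D SNP (5), from 2496 to 3943 between the TREM2 lines (3157) and from 11 to 74 between the SORL1 lines (14). TIMD4 and MARCO could not be tested with a filter of 5 TPM. With 1 library of CD33 SNP or INPP5D SNP left out, the other was assumed to vary like the rest. Differences of genes near 1 TPM are limited by the unknown depth.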
